A study of Mus musculus with 12 samples.

Results

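The guidance families are the secreted and membrane proteins that steer growing axons and, in blood vessels, growing endothelial cells: semaphorins and their plexin receptors, ephrins and Eph receptors, Slits and Robo receptors, and netrins with Unc5 receptors. Members were the protein coding genes whose symbol begins with one of these family names and whose FPKM (fragments scaled to transcript length and library size, summed over the transcripts of a gene) averaged 1 or more over all 12 libraries. The symbol rule matched 67 genes, of which 31 were members and 36 stayed under 1 FPKM, out of 11378 genes at or above 1 FPKM and 23422 genes in all. Of the measured values, the members were chosen by mean FPKM, so levels are given as a description. The members nearest to the threshold were Efna5 at a mean of 2.02 FPKM, Sema4b at 1.93 and Ephb2 at 1.39, and the nearest genes below it were Epha4 at 0.686, Sema4d at 0.416 and Plxnb1 at 0.415. One member, Unc50, shares only the first letters of its symbol with the Unc5 receptors and encodes a membrane protein of the Golgi, which leaves 30 guidance genes.

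The RNA came from primary mouse lung endothelial cells grown as monolayers in a medium with serum and endothelial mitogen. Wild type cells were of strain C57BL/6J, and double knockout cells came from MLK2-/-MLK3-/- mice, which lack a pair of mixed lineage kinases, enzymes that activate the JNK pathway. Each genotype was sampled in normoxia (21% oxygen) and after 90 min of hypoxia (1% oxygen), giving 4 groups of 3 libraries. Whether those 3 stem from distinct cultures, mice or a single pool is not in the labels. A p here thus reflects spread among samples that may be technical. The strain background of the knockout is not in the labels either, so the comparisons of genotypes cannot tell genotype from a difference of strain.

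In vessels, class 3 semaphorins bind neuropilins and plexins and mostly repel or collapse endothelial cells, with Sema3e acting on plexin D1 directly. Ephrins are bound to the cell surface, so that they signal to Eph receptors on a touching cell, and ephrin-B2 and its receptor EphB4 mark arteries and veins. Robo4 and Unc5b are largely endothelial members of receptor families better known from neurons, and both are tied to vessel stability.

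Sequences upstream of the start site are shown for Plxnd1, Epha2 and Sema7a, as examples of genes that changed with hypoxia in both genotypes and hold the motif searched for. They are RefSeq promoters on GRCm38.p6: Plxnd1 at chr6:115995006-115995255 on the minus strand, Epha2 at chr4:141300971-141301220 on the plus strand, and Sema7a at chr9:57939862-57940111 on the plus strand. None of these bases lies in an exon of GENCODE M21. Capitals mark the core of the hypoxia response element, searched as ACGTG or GCGTG on both strands with overlapping matches merged.
Plxnd1: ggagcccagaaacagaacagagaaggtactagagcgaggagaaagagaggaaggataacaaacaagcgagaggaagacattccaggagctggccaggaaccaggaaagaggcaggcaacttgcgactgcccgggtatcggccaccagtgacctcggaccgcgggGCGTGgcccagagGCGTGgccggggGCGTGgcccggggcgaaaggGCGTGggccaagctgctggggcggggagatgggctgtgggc
Epha2: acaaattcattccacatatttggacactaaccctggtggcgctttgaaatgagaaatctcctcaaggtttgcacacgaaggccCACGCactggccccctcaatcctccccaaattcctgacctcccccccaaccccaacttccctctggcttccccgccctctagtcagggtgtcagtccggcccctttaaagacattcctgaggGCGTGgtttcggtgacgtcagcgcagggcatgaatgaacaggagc
Sema7a: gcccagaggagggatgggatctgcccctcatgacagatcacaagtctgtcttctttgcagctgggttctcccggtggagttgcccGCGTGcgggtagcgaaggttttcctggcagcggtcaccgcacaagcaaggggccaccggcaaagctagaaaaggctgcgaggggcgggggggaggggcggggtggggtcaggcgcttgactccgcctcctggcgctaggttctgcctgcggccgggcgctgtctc
The stretch of Plxnd1 holds 4 matches, that of Epha2 holds 2 and that of Sema7a holds 1. Over windows of 300 bases (250 before and 50 after the start), 43.8% of 32851 RefSeq promoters and 63.4% of the 10881 promoters of genes tested here hold this motif. Promoters were found for 26 of the 31 members, and 17 of these 26 genes have a match. Of the 8 members that rose with hypoxia in both genotypes, 7 had promoters in the table, and 5 of their 9 promoters hold the motif, which is near the share over all tested genes. The promoters of Sema3a, Sema3d and Plxnb2, which also changed in both genotypes, hold none. The AP-1 site, searched as TGAGTCA or TGACTCA, is in 2 of the 32 member promoters and in 3.62% of those of tested genes. The cAMP response element TGACGTCA, searched after it was seen in Epha2, is in the promoter of Epha2 alone among members and in 3.11% of those of tested genes.

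The libraries held an estimated 21100000 to 25800000 fragments, and the values of the lowest member, Ephb2, rested on an estimated 75 to 200 fragments per library. Map3k10, which encodes MLK2, was at 16.6 to 19.2 FPKM in wild type libraries. In double knockout libraries it was at 0.131 to 0.169 FPKM in normoxia and at 1.02 to 1.34 FPKM in hypoxia, without overlap. The source of this difference within the double knockout was not tested. Map3k11, which encodes MLK3, was at 31.9 to 36.4 FPKM in wild type and 10.9 to 12.2 FPKM in double knockout libraries, so both went with the genotype labels. Of 12 endothelial markers, 11 were at 1 FPKM or more in every group, led by Egfl7, Emcn and Pecam1, while Vwf was near 0. Epithelial markers summed to at most 0.881 FPKM. The 7 leukocyte markers summed to 20.1 to 28.7 FPKM in wild type and 59.7 to 72.8 FPKM in double knockout libraries, most of it Lyz2. The mean of Ptprc (CD45) was 0.135 FPKM in normoxia and 0.187 in hypoxia in wild type, and 0.595 and 0.623 in the double knockout. The 10 fibroblast and mural markers summed to 3.81 to 6.10 FPKM in wild type and to 8.28 to 10.1 FPKM in the double knockout. The 5 lymphatic endothelial markers, led by Lyve1, summed to 484.0 to 495.6 FPKM in wild type normoxia, 520.8 to 597.3 in wild type hypoxia, 374.3 to 432.9 in double knockout normoxia and 405.4 to 446.5 in double knockout hypoxia.

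Levels per length spanned from about 1 to above 100 FPKM among members (plot of levels by family). Sema3a, a secreted repellent, was the highest of 10 semaphorins at a mean of 74.6 FPKM, ahead of the membrane-anchored Sema7a (49.5) and the secreted Sema3f (38.4), though the library ranges of neighbours in this order overlapped. In double knockout normoxia the order was reversed, with Sema7a at 67.8 to 71.5 FPKM and Sema3a at 51.1 to 58.3. Plxnd1, the endothelial plexin, was at 65.7 FPKM, and the next of the 5 plexins, Plxnb2, at 17.1. Efna1, a ligand of EphA receptors, was at 105.4 FPKM, while the arterial ligand Efnb2 was at 7.97. Of the 4 Eph receptors, Epha2 (65.6 FPKM) and Ephb4 (63.4) were high and Ephb1 (7.22) and Ephb2 (1.39) low. The ranges of Epha2 and Ephb4 over the 12 libraries overlapped. Robo4 was at 90.3 FPKM, while Robo1 was at 0.283, Robo2 at 0.0190 and the ligand Slit2 at 3.89. Unc5b was at 49.9 FPKM and the laminin-related netrin Ntn4 at 47.1, with overlapping libraries, and Ntn1, the classical attractant, was at 2.43. Among the 36 genes under the threshold were Plxnc1, the plexin that binds Sema7a, at 0.0335 FPKM, and Sema3g at 0.299.

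**Figure D1:**
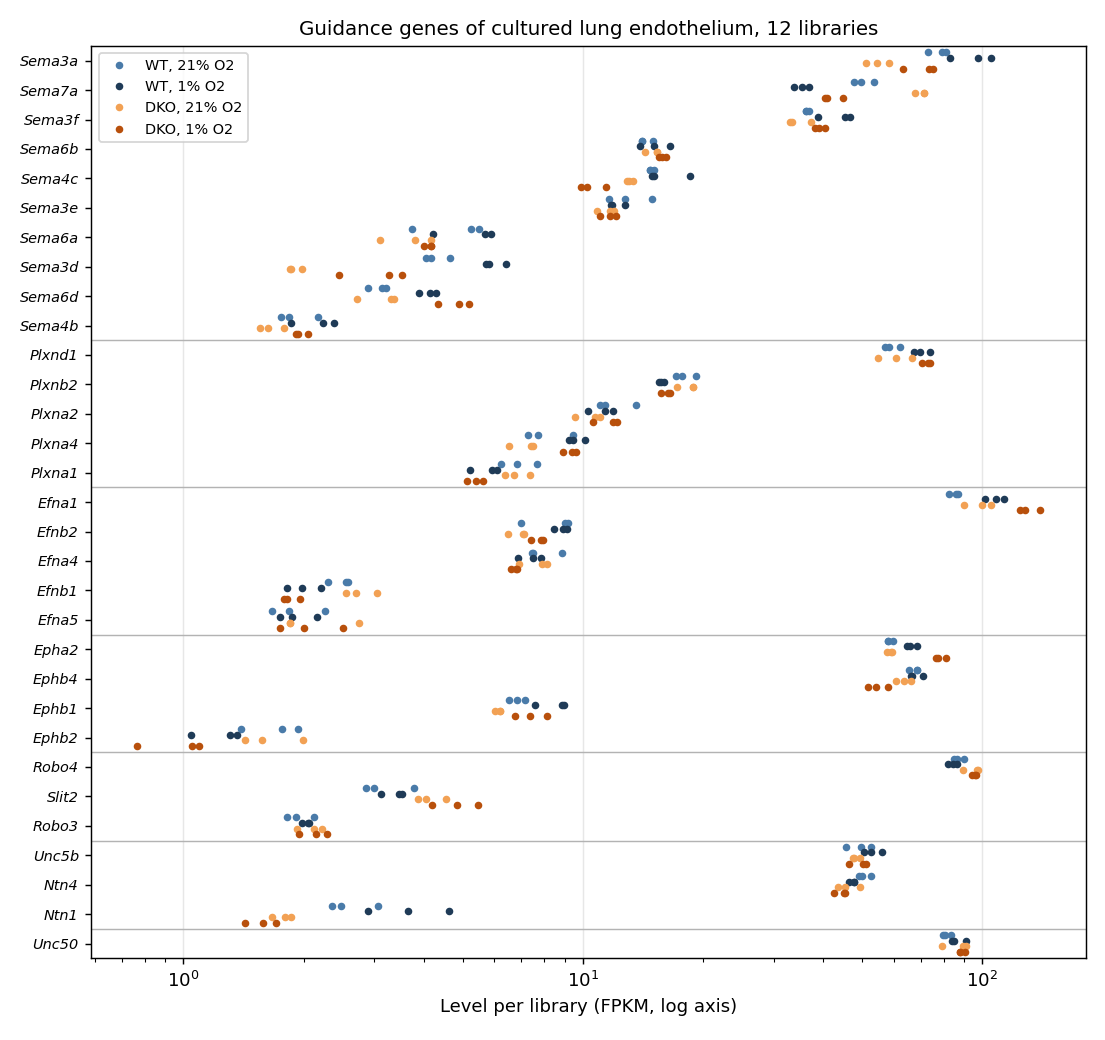
Level of the 31 members in each of the 12 libraries (FPKM, log axis), ordered by family and mean, with 1 point per library and colour for genotype (WT, wild type; DKO, double knockout) and oxygen. Efna1, Robo4 and Unc50 lie highest and Ephb2 lowest, and for most genes the 4 groups lie close together compared with the distance between genes.

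Changes were tested on log2(FPKM + 1) with limma over all 11378 genes, and a gene passed where its p, adjusted by Benjamini-Hochberg over all of them, was under 0.05. All fold changes below are differences on that log2 scale, which understates the changes of low genes, and errors are standard errors of the fit. With 3 libraries a group, separate libraries can also arise where nothing changed. How many of all tested genes had separate libraries was not counted, so overlap or its absence is given as a description. Of the 31 members, 19 passed in at least 1 of 5 comparisons, where 49.6% of all tested genes did, and 12 in none. The latter were Efna4, Efna5, Efnb2, Ntn4, Plxna2, Robo3, Sema3e, Sema4b, Sema6a, Sema6b, Unc5b and Unc50. The heat map shows the fold changes of every member.

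**Figure D2:**
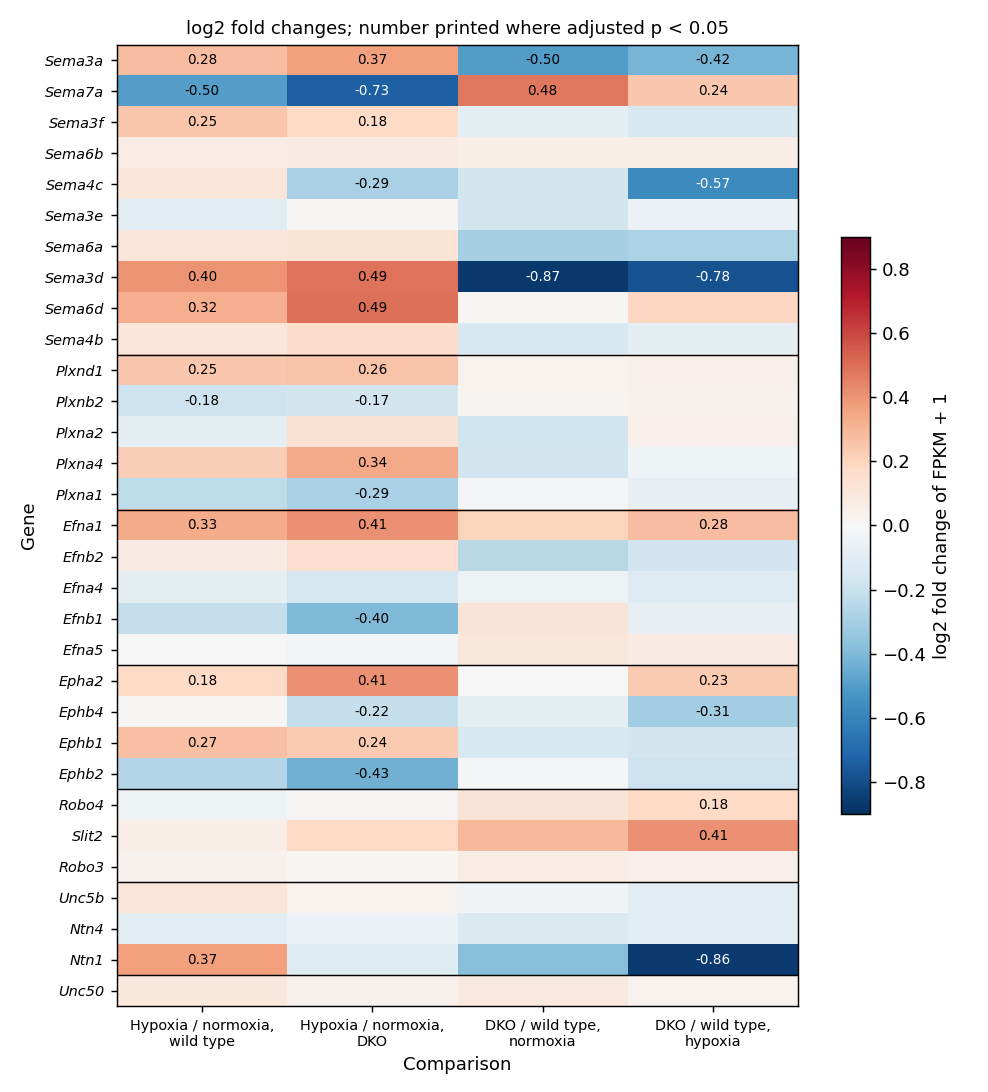
Fold change of each member (rows, by family) in the 4 comparisons of a pair of groups (columns), as differences of log2(FPKM + 1); red is higher in the first-named group, blue lower, and a number is printed where the limma adjusted p was under 0.05 (DKO, double knockout). Sema3d, Ntn1 and Sema7a hold the deepest colours, with Sema7a lower in hypoxia and higher in the double knockout, and Sema3a and Sema3d the reverse.

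In wild type cells, hypoxia raised an ephrin and its receptor, 4 semaphorins, a plexin, a further Eph receptor and a netrin, and lowered Sema7a and Plxnb2. That is 9 members higher, 2 lower and 20 that did not pass by limma, or 35.5% of members, where 20.8% of all tested genes passed (10.5% higher and 10.4% lower). The median of the members was 0.07 and that of all genes 0.00. Sema7a, a GPI-anchored semaphorin that binds integrins, measured 47.6, 49.7 and 53.6 FPKM at 21% oxygen against 33.7, 35.4 and 36.8 at 1%. All hypoxia libraries of Sema7a were below all normoxia libraries, and it fell by 0.50 ± 0.05 (limma adjusted p = 8.66e-05). Efna1 measured 86.9, 82.6 and 86.0 FPKM at 21% oxygen against 113.0, 108.2 and 101.4 at 1%. The groups did not overlap, and Efna1 rose by 0.33 ± 0.06 (limma adjusted p = 0.00342). Its receptor Epha2 measured 59.8, 58.1 and 58.2 FPKM at 21% oxygen against 68.7, 65.9 and 64.8 at 1%. Epha2 too had separate groups and rose by 0.18 ± 0.03 (limma adjusted p = 0.00450).

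Among the secreted semaphorins, Sema3d measured 4.06, 4.17 and 4.65 FPKM at 21% oxygen in wild type against 6.43, 5.83 and 5.71 at 1%, with no overlap (log2 fold change 0.40 ± 0.09, limma adjusted p = 0.0116). Sema3a measured 81.1, 79.3 and 73.3 FPKM at 21% oxygen against 104.8, 97.6 and 82.8 at 1%. Its lowest hypoxia library lay just above the highest normoxia library (0.28 ± 0.09, limma adjusted p = 0.0419). Sema3f rose by 0.25 and the transmembrane Sema6d by 0.32. Over the same groups the lymphatic marker sums were higher in all 3 hypoxia libraries, and their part in these changes was not tested. In these bulk samples more cells of a type and more RNA per cell cannot be told apart.

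Plxnd1, the receptor of Sema3e, measured 58.2, 62.2 and 57.2 FPKM at 21% oxygen in wild type against 69.6, 74.0 and 67.4 at 1%, without overlap (0.25 ± 0.06, limma adjusted p = 0.0166). Ephb1 rose by 0.27. Plxnb2, a receptor of class 4 semaphorins, measured 17.1, 19.2 and 17.7 FPKM at 21% oxygen against 16.0, 15.5 and 15.7 at 1%, and fell by 0.18 ± 0.05 (limma adjusted p = 0.0246). Ntn1 measured 2.48, 3.06 and 2.36 FPKM at 21% oxygen against 3.65, 4.61 and 2.90 at 1%. Its groups overlapped, and its call (0.37 ± 0.12, limma adjusted p = 0.0489) was lost in 13 of 19 alternatives (highest limma adjusted p 0.177), among them without any 1 library other than wild type normoxia 2 or wild type hypoxia 3. Of the 11 calls, those of Sema7a, Efna1 and Epha2 held in every alternative that was run.

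The wild type counts depended on single libraries. Without wild type normoxia library 1 or library 3, 6 members passed in each case, and without wild type hypoxia library 1 or library 2, 4 passed in each case, while the share of all genes that passed was then 14.8, 14.0, 12.1 and 13.1%. The calls of Ephb1, Plxnb2, Plxnd1, Sema3a, Sema3d, Sema3f and Sema6d were each lost without at least 1 of these 4 libraries, with limma adjusted p up to 0.161 for Sema3a and 0.0534 for Sema3d. Quantile normalization ended the calls of Plxnd1 and Sema3a, fitting the compared libraries alone those of Plxnb2 and Sema3a, and dropping the filter or the variance trend that of Sema3a. The call of Plxnb2 also ended without wild type normoxia library 2 or hypoxia library 3, and that of Sema3a without wild type normoxia library 2, double knockout normoxia library 3 or double knockout hypoxia library 2.

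In double knockout cells, hypoxia raised 9 members and lowered 7, with 15 that did not pass (limma), or 51.6% against 39.3% of all tested genes (19.6% higher and 19.6% lower). The median of the members was 0.04 and that of all genes 0.01. Sema7a measured 71.5, 71.5 and 67.8 FPKM at 21% oxygen against 40.3, 44.7 and 40.9 at 1%. Its groups lay far apart, and it fell by 0.73 ± 0.05 (limma adjusted p = 2.01e-06). Epha2 measured 57.8, 59.5 and 59.0 FPKM at 21% oxygen against 81.2, 76.6 and 77.3 at 1%, and it rose by 0.41 ± 0.03 (limma adjusted p = 5.82e-06). Efna1 measured 89.8, 99.9 and 105.2 FPKM at 21% oxygen against 127.9, 139.6 and 124.5 at 1%. The hypoxia libraries of both genes were above all their normoxia libraries, and Efna1 rose by 0.41 ± 0.06 (limma adjusted p = 3.02e-04).

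Sema6d, a transmembrane ligand of plexin A receptors, measured 3.36, 3.30 and 2.71 FPKM at 21% oxygen in double knockout against 4.91, 5.19 and 4.33 at 1%, without overlap (0.49 ± 0.08, limma adjusted p = 5.12e-04). Sema3d measured 1.86, 1.98 and 1.85 FPKM at 21% oxygen against 3.54, 3.27 and 2.45 at 1% (0.49 ± 0.09, limma adjusted p = 0.00168). Sema3a measured 51.1, 58.3 and 54.4 FPKM at 21% oxygen against 75.4, 73.6 and 63.4 at 1% (0.37 ± 0.09, limma adjusted p = 0.00594). For these secreted semaphorins, too, no hypoxia library was as low as any normoxia library. The lymphatic marker sums of these groups overlapped. By group means Lyve1, Flt4 and Prox1 were higher in hypoxia and Pdpn and Ccl21a lower, and their part in these changes was not tested. Plxna4 (0.34), Plxnd1 (0.26), Ephb1 (0.24) and Sema3f (0.18) also rose. Plxnd1 measured 66.6, 60.6 and 54.9 FPKM at 21% oxygen against 74.0, 72.9 and 70.7 at 1%.

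On the lower side in the double knockout, Ephb2, a receptor of B-type ephrins, measured 1.99, 1.58 and 1.42 FPKM at 21% oxygen against 1.05, 1.10 and 0.764 at 1%, and fell by 0.43 ± 0.11 (limma adjusted p = 0.00952). Its ligand Efnb1 measured 3.05, 2.55 and 2.71 FPKM at 21% oxygen against 1.78, 1.96 and 1.82 at 1%, and fell by 0.40 ± 0.08 (limma adjusted p = 0.00157). In both genes the groups were separate. Ephb4 fell by 0.22, Plxna1 by 0.29, Sema4c by 0.29 and Plxnb2 by 0.17. The call of Sema3f was lost in 11 of 20 alternatives (highest limma adjusted p 0.155), among them without any 1 of 8 libraries: wild type normoxia 1, 2 or 3, double knockout normoxia 2 or 3, or double knockout hypoxia 1, 2 or 3. That of Ephb1 was lost without double knockout normoxia library 3 or hypoxia library 1 or 2 (0.0986). That of Plxnb2 was lost without double knockout normoxia library 1 or 2 or hypoxia library 2 (0.0758), and that of Plxnd1 under quantile normalization alone (0.0625).

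The wild type and double knockout comparisons of hypoxia share no library, though they share the fit's estimate of spread. Efna1, Epha2, Ephb1, Plxnd1, Sema3a, Sema3d, Sema3f and Sema6d rose in both, Plxnb2 and Sema7a fell in both, and no member was called in opposite directions (plot of hypoxia responses). These 10 are 90.9% of the 11 members called in wild type and 62.5% of the 16 called in the double knockout. Of all tested genes, 16.8% were called the same way in both, which is 80.5% of those called in wild type and 42.7% of those called in the double knockout. Efnb1, Ephb2, Ephb4, Plxna1, Plxna4 and Sema4c passed only the test in the double knockout and Ntn1 only that in wild type, which does not show that their responses differ. In wild type, Plxna4 passed with a replicate block or without normoxia library 2, Efnb1 without hypoxia library 3 or without the variance trend, and Plxna1 without normoxia library 3.

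**Figure D3:**
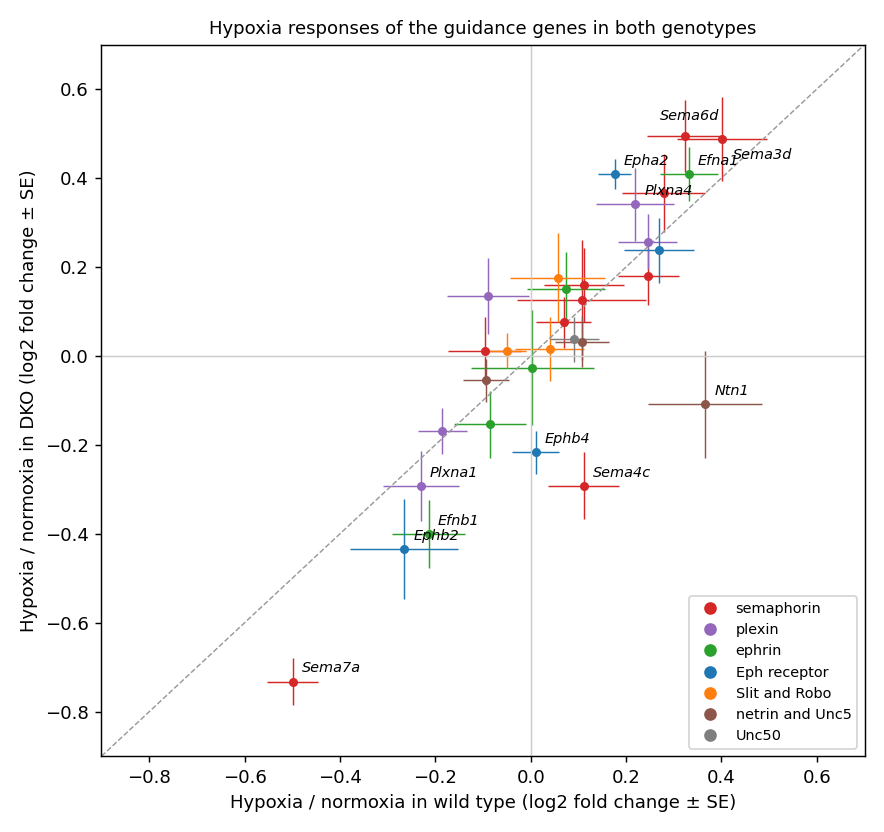
Fold change with hypoxia in wild type (x axis) against that in the double knockout (y axis) for each of the 31 members, as log2 differences with standard errors of the fit, coloured by family; the dashed line marks equal responses. Most members lie near the line, Epha2 and Plxna2 above it, and Sema7a, Sema4c, Ephb4 and Ntn1 below it.

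Members called in a single genotype also had measured values in the other. Efnb1 gave 2.58, 2.55 and 2.30 FPKM in normoxic and 1.98, 1.82 and 2.21 FPKM in hypoxic wild type cells, which were separate groups (-0.21, limma adjusted p = 0.0687). Ephb2 gave 1.39, 1.76 and 1.93 FPKM in normoxic and 1.04, 1.36 and 1.31 FPKM in hypoxic wild type cells (-0.27, limma adjusted p = 0.119). Its groups did not overlap either, nor did those of Unc50 and Ntn4 in wild type (limma adjusted p = 0.2275 and 0.1889), which passed in no comparison. With hypoxia in the double knockout, Efna4, Efnb2, Sema4b and Sema6b likewise had separate groups without passing. Plxna1 and Plxna4 are receptors that pair with neuropilins for class 3 semaphorins. Plxna4 gave 7.41, 7.51 and 6.52 FPKM in normoxic and 9.40, 9.60 and 8.93 FPKM in hypoxic double knockout cells, and 7.73, 9.42 and 7.29 against 9.46, 10.1 and 9.24 FPKM in wild type cells (0.22, limma adjusted p = 0.0785). Plxna1 gave 7.38, 6.72 and 6.37 FPKM in normoxic and 5.39, 5.13 and 5.64 FPKM in hypoxic double knockout cells, and 6.86, 7.67 and 6.23 against 5.92, 6.08 and 5.23 FPKM in wild type cells (-0.23, limma adjusted p = 0.0589). The groups of Plxna1 were separate in both genotypes, while those of Plxna4 overlapped in wild type. Ephb1, a receptor of B-type ephrins, gave 6.86, 7.17 and 6.51 against 8.97, 8.87 and 7.57 FPKM in wild type cells and 6.19, 6.20 and 6.02 against 8.15, 7.38 and 6.77 FPKM in double knockout cells, with all hypoxia libraries the higher. Sema6d gave 3.21, 3.13 and 2.89 FPKM in normoxic and 4.14, 4.28 and 3.90 FPKM in hypoxic wild type cells, again without overlap.

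The difference of the hypoxia responses was tested directly. None of the 31 members passed by limma, where 0.193% of all tested genes did (0.0703% higher and 0.123% lower), and none passed in any alternative. At an unadjusted p under 0.05 there were 5 of 31, a share near the 16.0% of all tested genes. Those 5, Epha2, Sema4c, Ntn1, Sema7a and Ephb4, are given next, with intervals that are not adjusted for the number of genes. For Epha2 the response in the double knockout minus that in wild type was 0.23 (95% interval 0.13 to 0.34, limma adjusted p = 0.0780). The estimates of Sema4c (-0.40, interval -0.63 to -0.17, limma adjusted p = 0.105) and Ntn1 (-0.47, interval -0.84 to -0.11, limma adjusted p = 0.1996) were below 0 without passing. So were those of Sema7a (-0.23, interval -0.40 to -0.07, limma adjusted p = 0.1635) and Ephb4 (-0.23, interval -0.38 to -0.08, limma adjusted p = 0.1436). For Plxnd1 the difference was 0.01 with an interval of -0.18 to 0.20, and for Efna1 it was 0.08 with an interval of -0.11 to 0.27.

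At 21% oxygen the double knockout differed from wild type in 3 semaphorins: Sema7a was higher and Sema3a and Sema3d were lower. The other 28 members did not pass by limma, so 9.68% of members passed against 8.16% of all tested genes (3.84% higher and 4.32% lower). The levels of all 3 are given by library above. Sema7a was at 67.8 to 71.5 FPKM in the double knockout and at 47.6 to 53.6 FPKM in wild type, a log2 fold change of 0.48 ± 0.05 (limma adjusted p = 1.94e-04). Sema3d was at 1.85 to 1.98 FPKM against 4.06 to 4.65 FPKM (-0.87 ± 0.09, limma adjusted p = 1.58e-04). Sema3a was at 51.1 to 58.3 FPKM against 73.3 to 81.1 FPKM (-0.50 ± 0.09, limma adjusted p = 0.00375). No library of one genotype reached the range of the other in these genes, and all 3 calls held in every alternative.

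The lymphatic marker sums were lower in the double knockout than in wild type at each oxygen level without overlap. The leukocyte and fibroblast sums were higher. By group means, the lymphatic markers Lyve1, Flt4 and Prox1 were lower at each oxygen level, Ccl21a in hypoxia only, and Pdpn at neither level. Most of the fibroblast sum was Acta2 and Dcn, which were higher, while Notch3 was lower at each level and Pdgfra lower in hypoxia. Of the leukocyte markers, Lyz2, Ptprc, Adgre1 and Fcgr1 were higher at each level, Csf1r and Itgam in normoxia only, and Cd68 in hypoxia only. The sums thus do not stand for every marker of a list, and their part in the genotype differences was not tested. Between these genotypes, Efna1 (0.20, limma adjusted p = 0.0691), Ntn1 (-0.39, 0.0735) and Slit2 (0.29, 0.10) had separate libraries in normoxia without passing, as did Ephb1 (-0.14, 0.324), Sema4c (-0.17, 0.221) and Plxna2 (-0.18, 0.244). Their separation was not set against that of all tested genes and does not show a change. Ntn1 passed with a replicate block and without wild type hypoxia library 2 or 3, Slit2 without wild type normoxia library 2, Robo4 without double knockout normoxia library 3, and Efna1 with quantile normalization or equal library medians. Without double knockout normoxia library 1, 5 members passed, now with Efna1 and Ntn4, where 7.08% of all genes passed.

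At 1% oxygen the same 3 semaphorins differed by genotype and 7 further members passed. In all 5 members were higher in the double knockout and 5 lower, with 21 that did not pass by limma, or 32.3% against 16.1% of all tested genes (7.68% higher and 8.42% lower). The median of the members was -0.07 and that of all genes 0.00. Sema3d (-0.78 ± 0.09, limma adjusted p = 2.34e-04), Sema3a (-0.42 ± 0.09, limma adjusted p = 0.00772) and Sema7a (0.24 ± 0.05, limma adjusted p = 0.00990) kept the directions seen in normoxia. Their libraries did not overlap between genotypes here either. The same held for Efna4, Efnb2, Ntn4, Sema6a and Sema6d, which did not pass.

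Ntn1 had the lowest fold change in hypoxia. Hypoxic cells gave 3.65, 4.61 and 2.90 FPKM with the wild type genotype and 1.59, 1.71 and 1.43 FPKM in the double knockout (-0.86 ± 0.12, limma adjusted p = 5.81e-04), with every double knockout library below every wild type library. In normoxia Ntn1 gave 2.48, 3.06 and 2.36 FPKM in wild type and 1.67, 1.80 and 1.86 FPKM in double knockout cells. Sema4c, a transmembrane ligand of plexin B2, read 14.9, 18.5 and 15.1 FPKM in hypoxic wild type cells against 9.90, 11.4 and 10.2 in hypoxic double knockout cells (-0.57 ± 0.07, limma adjusted p = 4.02e-04). Ephb4, the venous receptor of ephrin-B2, was at 66.6, 71.1 and 66.2 FPKM against 54.1, 57.9 and 51.6 FPKM (-0.31 ± 0.05, limma adjusted p = 0.00114). Each of these genes had separate genotypes in hypoxia. In normoxia Ephb4 was at 68.6, 68.5 and 65.4 FPKM in wild type and at 63.8, 66.1 and 60.6 FPKM in the double knockout, which overlap, and Sema4c was at 14.7 to 15.0 against 12.9 to 13.3 FPKM, which do not (limma adjusted p = 0.221).

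On the higher side, Slit2, the ligand of Robo receptors, read 3.53, 3.46 and 3.11 FPKM in hypoxic wild type cells against 4.85, 4.20 and 5.46 in hypoxic double knockout cells (0.41 ± 0.10, limma adjusted p = 0.0155). Its groups were separate, but the call was lost without wild type hypoxia library 3 or double knockout hypoxia library 3 (highest limma adjusted p 0.0636). Efna1 was higher by 0.28 ± 0.06 (limma adjusted p = 0.00998) and Epha2 by 0.23 ± 0.03 (limma adjusted p = 8.09e-04). Robo4 read 81.9, 86.3 and 84.3 FPKM in hypoxic wild type cells against 94.1, 96.0 and 96.1 in hypoxic double knockout cells (0.18 ± 0.04, limma adjusted p = 0.00990). In normoxia Robo4 was at 86.3, 89.9 and 85.1 FPKM against 97.1, 97.7 and 89.3 FPKM, where the groups overlapped. Apart from Slit2, these calls of members in hypoxia held in every alternative in which the gene was tested.

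**Figure D4:**
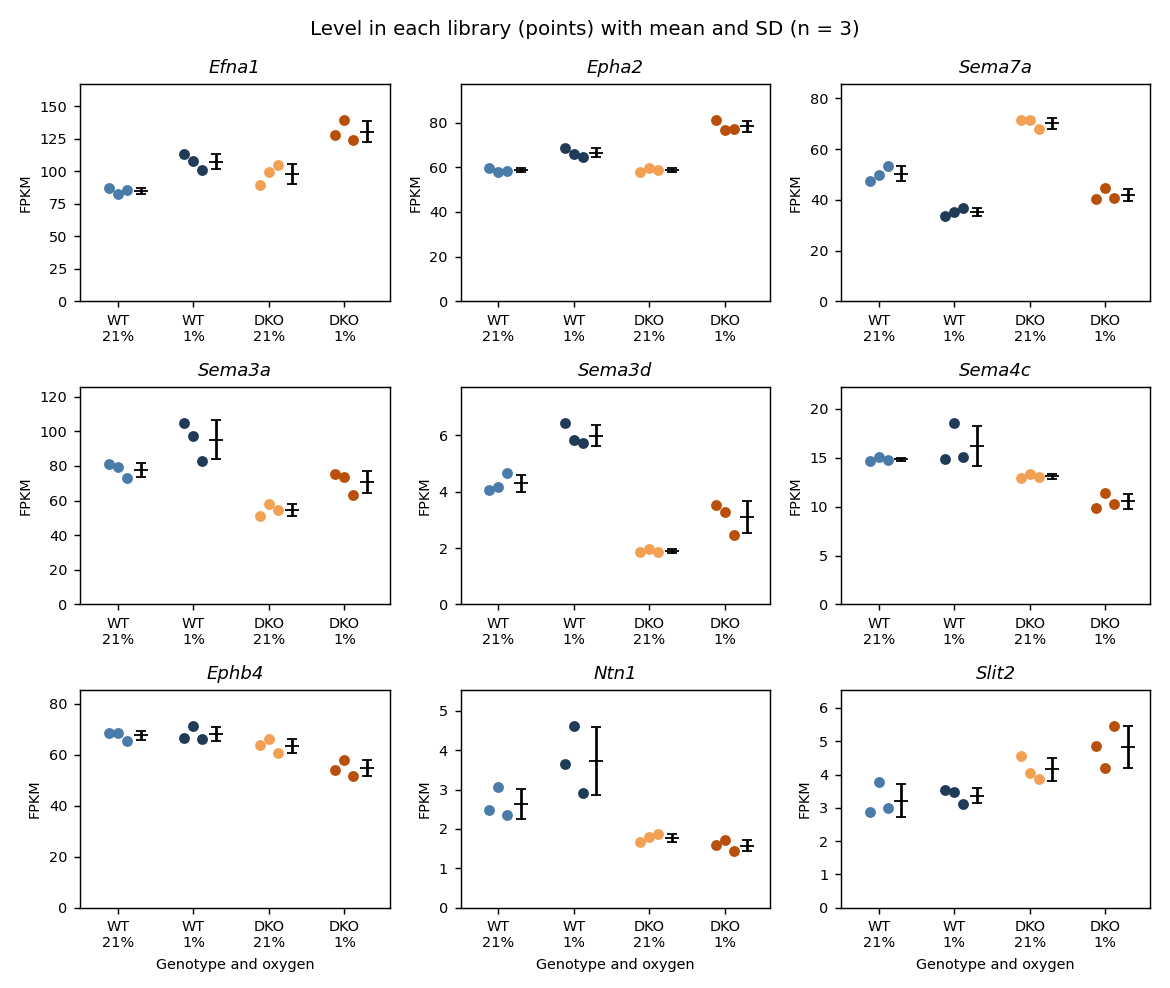
Level of 9 members in each library (points, FPKM from 0) with the group mean and SD (n = 3), by genotype (WT, wild type; DKO, double knockout) and oxygen. Sema7a is lower at 1% oxygen in both genotypes, Sema3a and Sema3d are lower in the double knockout at both oxygen levels, and Ntn1, Sema4c and Ephb4 lie apart by genotype at 1% oxygen.

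The comparisons of genotypes and of oxygen levels share libraries, so their fold changes are not independent of each other. By family, the summed ephrin level was 105.2 to 106.8 FPKM in wild type normoxia, 122.4 to 132.7 in wild type hypoxia, 110.5 to 123.1 in double knockout normoxia and 143.1 to 157.6 in double knockout hypoxia, most of it Efna1. Summed semaphorin levels were 219.2 to 223.9 and 217.4 to 243.7 FPKM in wild type, and 203.5 to 215.0 and 193.8 to 211.4 FPKM in the double knockout. Summed plexin levels overlapped between the genotypes at each oxygen level.

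Of the receptors that did not pass anywhere, Unc5b, which binds netrins and Robo4, gave 52.5, 49.6 and 45.5 FPKM in normoxic and 50.5, 55.9 and 52.7 FPKM in hypoxic wild type cells. Double knockout cells gave 47.6, 49.3 and 47.4 FPKM when normoxic and 50.3, 51.2 and 46.3 FPKM when hypoxic, so its groups overlapped in each comparison. Efnb2 had 7.02, 9.00 and 9.19 FPKM in normoxic wild type and 6.49 to 7.10 FPKM in normoxic double knockout cells (-0.25, limma adjusted p = 0.0965). In that comparison it passed without wild type normoxia library 1 (limma adjusted p = 0.00528). Sema3e, the ligand of plexin D1, was between 10.8 and 14.9 FPKM in all libraries, and Ntn4 between 42.4 and 52.5.

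Partners of these families, a list of 74 co-receptors, further ligands and cytoplasmic effectors of which 63 were tested, included Nrp1 and Nrp2, the co-receptors of class 3 semaphorins. In wild type hypoxia 8 of the 63 rose and 1 fell by limma (14.3%, against 20.8% of all genes; median 0.07). Ptk2, which encodes focal adhesion kinase, rose from 33.1 ± 0.851 to 40.1 ± 1.15 FPKM (SD, n = 3, log2 fold change 0.27), the Rac activator Vav3 from 18.1 ± 0.812 to 23.8 ± 1.92 FPKM (0.37), and the kinase Rock2 by 0.24, while the cofilin kinase Limk2 fell by 0.28. Nrp2 rose from 87.4 ± 6.92 to 102.9 ± 6.91 FPKM in wild type (0.23) and from 78.0 ± 3.83 to 94.6 ± 2.54 FPKM in the double knockout (0.28). In the double knockout 26 of the 63 rose and 7 fell (52.4%, against 39.3% of all genes; median 0.12). Ptk2 (0.43), Rock2 (0.46) and the kinase Abl2 (0.40) were the highest-ranked by p, and Limk2 (-0.33), the adhesion protein and Unc5 ligand Flrt3 (-0.36) and the adaptor Nck1 (-0.18) fell. The wild type count was 4 without wild type normoxia library 1 or hypoxia library 2 (14.8 and 13.1% of all genes), and 5 without normoxia library 3 or hypoxia library 1 (14.0 and 12.1%). The double knockout count was 22 without double knockout hypoxia library 1 (32.4% of all genes).

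Between genotypes in normoxia 2 of these partners were higher and 7 lower by limma (14.3%, against 8.16% of all genes; median -0.04). Sdc4, a surface proteoglycan, was at 80.4 ± 1.79 FPKM in the double knockout and 54.4 ± 1.16 FPKM in wild type (SD, n = 3, log2 fold change 0.55). The Unc5 ligands Flrt2 (-0.31) and Flrt3 (-0.37) and the netrin receptor neogenin, Neo1 (-0.39), were lower. In hypoxia 7 were higher and 6 lower (20.6%, against 16.1%; median -0.03), with Sdc4 (0.40), Vasp (0.16) and Rock1 (0.16) higher and Neo1 (-0.59), Flrt3 (-0.61) and Flrt2 (-0.20) lower. The normoxia count was 5 without double knockout normoxia library 1 (7.08% of all genes), and the hypoxia count was 8 without wild type hypoxia library 3 or double knockout hypoxia library 1 (11.9 and 10.4%). No partner passed in the difference of the responses by limma, where 9 of 63 had an unadjusted p under 0.05, against 16.0% of all tested genes.

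Single transcripts carried most of the signal of several members. For Efna1 the leading transcript held 99.3 to 100.0% of the level in every library, for Plxnd1 99.2 to 100.0%, for Ephb1 94.4 to 97.6% and for Ephb4 90.6 to 96.1%. Sema3a was split over 5 transcripts, the leading one at 35.4 to 43.6%, and Robo4 over 3, the leading one at 49.6 to 57.6%. For Sema6d the leading transcript of 8 held between 7.53 and 52.3%, a spread that the groups did not separate. How fragments were shared out between transcripts is not given in the sources used here, so the sums per gene were tested.

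Several members lie side by side in the genome (GENCODE M21, GRCm38). Sema3d (12383385 to 12588948), Sema3a (13125414 to 13602565) and Sema3e (14025276 to 14256689) follow each other on the plus strand of chromosome 5, with gaps of 0.536 and 0.423 Mb. Sema3d and Sema3a were the semaphorins that passed as lower in the double knockout at both oxygen levels, while Sema3e had values of -0.16 in normoxia (limma adjusted p = 0.245) and -0.05 in hypoxia (0.680). Efna1 and Efna4 lie 52.2 kb apart on chromosome 3, and only Efna1 passed with hypoxia (Efna4: -0.08 in wild type and -0.15 in the double knockout, limma adjusted p = 0.459 and 0.125). Robo4 and Robo3 converge on chromosome 9 with 553 bases between their ends. No member lies on chromosome 19 with Map3k11, and the only one on chromosome 7, Sema4b, is 52.5 Mb from Map3k10.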

How the data were processed

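Per the labels' protocols, an RNeasy Plus kit gave the RNA and a NEBNext Ultra kit the libraries. TopHat2 was the aligner, per the submitters' processing notes, and its version, the genome build, the annotation and the FPKM tool were not given in the sources used here. The authors deposited FPKM values of 52655 transcripts in 12 libraries. Transcripts were summed per gene identifier. The 11378 genes averaging 1 FPKM or more were fitted as log2(FPKM + 1) in limma 3.58.1 under R 4.3.3, with 1 coefficient per group over all 12 libraries and a variance trend on the mean. P was adjusted by Benjamini-Hochberg over all genes within a comparison (threshold 0.05). The steps of the fit were tested on simulated data for hypoxia in wild type alone, with planted changes larger than those of the members called there. That test thus does not show how often changes of the members' size are found. The members and lists were chosen with earlier results of these data known.

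Every member past the threshold is named. Library values are given for the highest member of each family and for up to 3 largest changes each way in a comparison, and partners are the up to 3 smallest p each way, with some others shown after their values were seen. The result of 1 partner named by this rule is not reported here. To estimate depth, the step size of low values was read from 10091 genes with a single transcript (275 bases taken off each length), and 88.1 to 91.5% of those values then lay no more than 0.1 from a whole number of fragments. GENCODE M21 (GRCm38) holds 95.2% of the transcript identifiers and the positions of all 31 members. The alternatives were no variance trend, a replicate block, only the compared libraries, equal medians, quantile normalization, a pseudocount of 0.1, a minimum mean of 5 FPKM or none, and leaving out any 1 library.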

Additional observations from a re-analysis of the deposited data

How the results depend on the processing

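No member changed direction where it was called. All 3 calls of members in normoxia between genotypes, 9 of 10 in hypoxia, 12 of 16 with hypoxia in the double knockout and 3 of 11 in wild type held in every alternative run. In the same order 6, 1, 3 and 3 members that did not pass did so in at least 1 alternative. With a library left out, members past the threshold ranged from 4 to 11 for hypoxia in wild type, 13 to 16 in the double knockout, 3 to 5 for the genotypes in normoxia and 9 to 10 in hypoxia, and 0 to 0 for the difference. Partners ranged from 4 to 12, 22 to 34, 5 to 9, 8 to 15 and 0 to 0 in the same order. With the libraries of the comparison alone, 5 partners passed between genotypes in normoxia, against 9. The cause was not tested. A mean of at least 5 FPKM left fewer members to test.

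No pairing by replicate number was seen: same-numbered libraries correlated at -0.0841 to 0.0522 in their deviations from the group means. Differently numbered ones correlated at -0.135 to 0.131, and not every library correlated best with its own number. Deviations within a group cancel out, which limits these correlations, so a pairing is not excluded. With a replicate block, 12, 16, 4, 10 and 0 members passed, against 11, 16, 3, 10 and 0, and the shares of all genes were 20.1, 38.8, 7.9, 15.7 and 0.00879%. The block added Plxna4 in wild type hypoxia and Ntn1 between genotypes in normoxia. The FPKM values carry no counts, so members near 1 FPKM are limited by an estimated 75 fragments and up per library.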
